A study of Mus musculus with 2 samples.

Results

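Retnlg-high mature neutrophils are the granulocytes of this data set that carried at least 3 UMIs, the molecule counts of the assay, from Retnlg, Stfa2l1 and Asprv1 together. They were chosen on raw UMI sums per cell barcode. A barcode needed at least 500 UMIs, at least 200 genes and less than 20% mitochondrial UMIs. It then needed at least 3 UMIs over Csf3r, Cxcr2, Il1r2, G0s2 and Retnlg, and no more than 2 over Csf1r, C1qa, C1qb and H2-Aa, which mark mononuclear phagocytes. Barcodes with 2 or more UMIs of Ngp, Camp and Ltf (immature cells), 3 or more of Ifit1, Ifit3 and Rsad2 (an interferon response) or any of Siglecf were set aside. The rule found 1310 of the 21211 barcodes that passed the quality filter, 846 in the MOCK and 464 in the NAV library.

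The cells were CD45+ leukocytes sorted from mouse intrahepatic cholangiocarcinoma (iCCA), a bile duct cancer inside the liver, and sequenced on BD Rhapsody, which pairs single cells with barcoded beads in microwells. All tumours, those of the controls included, were driven in C57BL/6 mice by hydrodynamic injection of transposon vectors for Myr-AKT and YAPS127A, so they arise in liver cells that took up the plasmids in adult animals. Treatment began 7 days after injection and ran for 7 days: the NAV group received NAV2729, an inhibitor of ARF GTPase activation, at 30 mg/kg every other day, and the MOCK group did not. The livers were perfused with saline, digested with enzymes and sorted on CD45, and the cells of several tumours were pooled into 1 library per group. The design text gives 6 tumours per group and the protocol 3 paired tumours, so the pool size is uncertain. Each treatment is thus 1 library, so the differences between them stand without replicates and without a test. Intervals are given at 95% and take in the error of counting molecules alone, not the spread between animals.

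The deposited tables held 10863 MOCK and 10465 NAV barcodes with 45976676 and 31454031 UMIs, and 10770 and 10441 barcodes passed the filter with medians of 3882 and 2178 UMIs. The depth of the members differed little between libraries: medians of 1352 and 1323 UMIs, 700 and 682 genes, and 0.401% and 0.292% mitochondrial UMIs. The libraries shared 5 barcode sequences, 1 of them that of a member. Doublet scores above 0.25 were found for 5 MOCK and 12 NAV members, which were kept.

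Neutrophils are short-lived phagocytes that leave the bone marrow with granules already filled, so that messages for granule proteins are highest in young cells and decline as the cell ages in blood and tissue. Retnlg encodes a resistin-like secreted protein, Stfa2l1 a cysteine protease inhibitor of the stefin A family and Asprv1 an aspartic protease. S100a8 and S100a9 form calprotectin, the abundant calcium- and metal-binding protein of the neutrophil cytosol. In mouse tumours such circulating-type neutrophils are known to exist beside Siglecf-positive neutrophils with a different, tissue-adapted programme.

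The regulatory sequence of a marker used by the rule and of the 2 calprotectin genes is shown because their messages were high in the same cells. Each is the stretch of 250 bases before the start site in RefSeq (GRCm38.p6), read 5′ to 3′ in the direction of the gene. Retnlg lies on the plus strand of chromosome 16 (chr16:48872358-48872607). S100a8 lies on the plus strand (chr3:90668821-90669070) and S100a9 on the minus strand (chr3:90695722-90695971) of chromosome 3. Capitals mark matches to TTGCNNAA or its reverse TTNNGCAA, letters bound by C/EBP factors, and to GAGGAAG or its reverse CTTCCTC, letters bound by PU.1. Both strands were searched.
Retnlg: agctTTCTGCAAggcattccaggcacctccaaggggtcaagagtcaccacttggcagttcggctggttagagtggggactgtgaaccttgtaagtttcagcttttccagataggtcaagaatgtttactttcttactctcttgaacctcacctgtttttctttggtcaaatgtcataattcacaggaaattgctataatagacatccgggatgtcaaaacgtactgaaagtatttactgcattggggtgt
S100a8: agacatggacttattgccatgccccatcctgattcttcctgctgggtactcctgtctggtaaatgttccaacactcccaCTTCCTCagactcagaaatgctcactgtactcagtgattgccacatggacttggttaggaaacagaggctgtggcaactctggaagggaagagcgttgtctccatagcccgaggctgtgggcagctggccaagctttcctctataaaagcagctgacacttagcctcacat
S100a9: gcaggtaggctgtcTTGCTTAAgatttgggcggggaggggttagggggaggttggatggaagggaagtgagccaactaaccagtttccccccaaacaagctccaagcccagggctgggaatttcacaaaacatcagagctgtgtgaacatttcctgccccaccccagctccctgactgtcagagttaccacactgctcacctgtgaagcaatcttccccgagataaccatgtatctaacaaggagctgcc
A C/EBP-type match began 246 bases before the start site of Retnlg and 236 bases before that of S100a9, and a PU.1-type match 171 bases before that of S100a8. No matches overlapped. Such letters were found in 9.56% and 10.6% of 32851 promoters of the same length, and a match is a description of the sequence only. The windows of Stfa2l1 and Asprv1 held neither motif.

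The genes of the rule describe how the cells were cut out and carry no test. Retnlg had a UMI in 94.6% of MOCK and 94.8% of NAV members, Asprv1 in 69.5% and 48.5%, and Stfa2l1 in 46.8% and 34.7%. The marker sum, Retnlg plus Stfa2l1 plus Asprv1, had a median of 14.5 UMIs in MOCK and 11 in NAV, with quartiles of 7 and 35 and of 5 and 22. It reached 163 and 126 UMIs in single cells. Among cells that met the rule's other limits, the set is therefore the upper range of a continuous level. Of the members, 118 in MOCK (13.9%) and 98 in NAV (21.1%) had a sum of only 3 or 4. The immature cells set aside had a median marker sum of 66 UMIs in MOCK and 0 in NAV. Cells with a sum of 3, just inside, numbered 68 and 65, and cells with a sum of 2, just outside, 65 and 105. S100a8 stood at 6592 CPM (a gene's UMIs over all UMIs of the set, on the usual CPM scale) just inside and 4557 CPM just outside in MOCK, and at 4342 and 3701 CPM in NAV.

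The label was checked on markers that the rule did not use. S100a8 had a UMI in 98.3% and 94.2% of MOCK and NAV members, against 4.43% and 3.65% of cells gated as B cells, which should lack it. S100a9 had a UMI in 96.3% and 90.5% of members and 3.32% and 1.89% of B cells. The median depth of those B cells was 1325 and 1490 UMIs, near that of the members. Cells were next thinned to 700 UMIs each; 8 members of MOCK and 10 of NAV were too shallow for this. S100a8 remained in 96.9% and 91.2% of members and 2.65% and 1.92% of B cells, and S100a9 in 95.2% and 87.7% and 1.40% and 0.958%. Primary granule genes such as Mpo and Elane, transcribed in promyelocytes, gave 13 UMIs over all MOCK members and 0 over NAV members. The rule had already set aside cells rich in Ngp, Camp and Ltf, and no other neutrophil set is given beside these counts. The other neutrophils held S100a8 often as well, in 80.6% and 62.3% of Siglecf-positive and 78.6% and 58.0% of Retnlg-low cells before thinning. The check thus sets the members apart from B cells and does not single out this subset among neutrophils. Mononuclear phagocytes were not part of it.

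RNA of other cell types was low but not absent. An erythroid list was at 0 UMIs in both libraries. Of 7 eosinophil genes, Epx, Prg2, Il5ra and Ear6 were at 0 in both, while Ccr3 gave 5 and 9 UMIs, Ear2 4 and 0 and Ear1 1 and 0. The 8 Kupffer cell markers summed to 22.3 and 9.14 CPM. A list of 12 macrophage and monocyte markers summed to 857 and 659.7 CPM. Its highest gene in MOCK was Ly6c2 at 225 CPM, against 196 CPM in gated phagocytes, and in NAV it had 161 against 551 CPM. The other genes of that list lay below gated phagocytes in both libraries. In MOCK, 58 Vcan UMIs sat in 14 members and 28 Ccr2 UMIs in 12, while 168 Cd68 UMIs were spread over 150. The rule allows up to 2 UMIs of its phagocyte genes, and 324 MOCK and 163 NAV members held 1 or 2. The 8 hepatocyte markers summed to 227 and 282 CPM, nearly all from Trf (225 and 280 CPM). The 10 T and NK cell markers summed to 52.9 CPM in MOCK and 204 CPM in NAV, and 8 B cell markers to 107 and 285 CPM. These lymphocyte messages were higher in NAV members and sat in few cells: 13 MOCK and 19 NAV members held 2 or more such UMIs.

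Retnlg-high cells were the most frequent neutrophils of the MOCK library and the third most frequent of the NAV library. They were 42.8% of MOCK (40.6 to 45.0%) and 15.8% of NAV (14.5 to 17.2%) of all gated neutrophils, a log2 ratio of -1.44 (-1.60 to -1.27). As a share of all leukocyte barcodes they were 7.86% of MOCK (7.35 to 8.38%) and 4.44% of NAV (4.06 to 4.86%), a log2 ratio of -0.82 (-0.99 to -0.66). The interval, which takes in counting error alone and no spread between animals, lay below 0 on either denominator. It also did when the other neutrophils were left out of the total, with shares of 8.78% and 5.82% and a ratio of -0.59 (-0.76 to -0.43).

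The larger neutrophil sets had higher shares in NAV. Gated neutrophils in total were 18.3% of MOCK and 28.1% of NAV barcodes. Of these, Siglecf-positive cells (417 and 862) made up 21.1% and 29.3%, and cells with fewer than 3 marker UMIs and no Siglecf, called Retnlg-low here (486 and 1356), 24.6% and 46.2%. Immature cells (122 and 66) were 6.17% and 2.25%, lower in NAV as the Retnlg-high cells were. Since the sets are cut by raw UMIs, a lower Retnlg message per cell and a smaller number of such cells cannot be told apart in these shares.

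**Figure D1:**
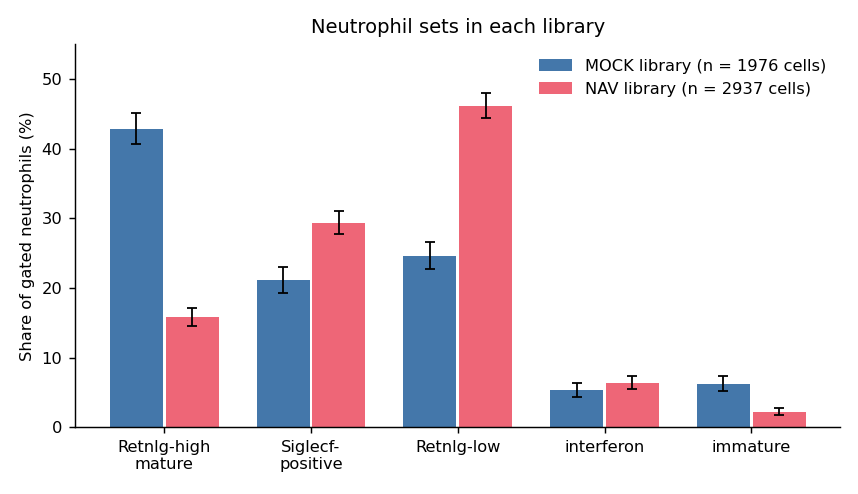
Share of gated neutrophils (%) in each of 5 sets for the MOCK (1976 cells) and NAV (2937 cells) libraries, with exact 95% binomial intervals as error bars. The Retnlg-high bars stand at 42.8% and 15.8%, and the Retnlg-low bars at 24.6% and 46.2%.

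Against Siglecf-positive neutrophils of the same library, Retnlg-high cells held more message for granule proteins, calprotectin and type I interferon response genes, and less for single inflammatory and lipid mediator genes, among them Ccl3, Tnf, Ltc4s and Ptgs1. These ratios describe 2 sets chosen on expression. Of 5904 genes measured (at least 20 UMIs in each library over both sets), 181 (3.07%) were at least 2-fold higher and 930 (15.8%) at least 2-fold lower in both libraries. The median over all genes was -0.48 in MOCK and -0.44 in NAV, and under scaling by the median of ratios the split was 430 higher and 360 lower. List values below are read against that median, and list counts against 3.07% higher and 15.8% lower of all genes.

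Of 18 secondary and tertiary granule genes, 12 were higher in both libraries and 1, Chil3, lower, with list medians of 1.48 and 1.97. Mmp8, the neutrophil collagenase, stood at 1259 against 152 CPM in MOCK and 588 against 44.1 CPM in NAV, log2 ratios of 3.05 (2.74 to 3.37) in MOCK and 3.74 (3.32 to 4.18) in NAV. Lcn2, a siderophore-binding protein of secondary granules, stood at 2849 against 811 CPM in MOCK and 1665 against 182 CPM in NAV, ratios of 1.81 and 3.20. Both were higher in Retnlg-high cells of each library. Wfdc21, a secreted antiprotease-like protein, had ratios of 2.60 and 2.94, and Hp, haptoglobin, of 1.05 and 1.74. Mmp9, gelatinase of tertiary granules, did not follow them: it stood at 2158 against 1709.5 CPM in MOCK and 1790.1 against 2024 CPM in NAV.

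Calprotectin and its relatives lay on the same side. S100a8 stood at 17060.5 against 4675 CPM in MOCK and 13583 against 2896 CPM in NAV, ratios of 1.87 (1.81 to 1.93) in MOCK and 2.23 (2.17 to 2.29) in NAV. S100a9 had ratios of 1.77 and 2.37 and S100a6 of 2.13 and 2.80. Cstdc4, a stefin A family member, had ratios of 2.37 and 3.14. Stefin A and Cstdc genes lie in a cluster of near-identical copies, between which reads may be split, so their single values are uncertain.

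Ly6g, the surface antigen that defines mouse neutrophils in cytometry, stood at 187 against 16.7 CPM in MOCK and 76.2 against 5.94 CPM in NAV, from 226 against 10 and 50 against 7 UMIs. The formyl peptide receptor Fpr1 had ratios of 1.48 and 1.93 and the integrin chain Itgal of 1.04 and 1.92. Of 28 adhesion and migration genes 6 were higher and 1, Icam1, lower. Icam1 had ratios of -1.99 and -2.25. A group of 11 of 24 type I interferon response genes was also higher and none lower, with medians of 0.93 and 1.41. It held Ifitm6 (2.50 and 2.83) and Ifitm1 (1.30 and 1.36), membrane proteins that restrict virus entry. Cells with strong Ifit1, Ifit3 or Rsad2 were set aside from both sets.

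Chemokines and cytokines divided. Of 20 measured, 7 were lower and 2 higher in both libraries, against 15.8% and 3.07% of all genes measured. Ccl3, an inflammatory chemokine, stood at 169 against 871 CPM in MOCK and 201 against 685 CPM in NAV, ratios of -2.37 and -1.77. Tnf had ratios of -1.44 and -2.43 and Csf1, the growth factor of macrophages, of -1.52 and -1.74. Ccl6 went the other way at 2.25 and 2.73. Il1b (-0.22 and -0.38) and Cxcl2 (-0.12 and -0.48) lay near the median of all genes, so their direction turns with the scaling.

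Among lipid mediators 3 of 10 were lower and none higher, against 15.8% and 3.07% of all genes measured, so the group rests on few genes. Ltc4s, leukotriene C4 synthase, gave 3 UMIs in MOCK and 1 UMI in NAV members against 44 and 81 in Siglecf-positive cells, ratios of -4.89 (-7.22 to -3.25) in MOCK and -5.50 (-10.82 to -2.98) in NAV. Ptgs1, cyclooxygenase-1, had ratios of -2.51 and -3.01. The anti-apoptotic Bcl2a1a had ratios of -2.36 and -2.64, with the limit that the Bcl2a1 copies are nearly identical. H1f0, a linker histone of non-dividing cells, gave 4 and 6 UMIs against 64 and 177, and Col15a1, a collagen chain, 3 and 10 against 72 and 217. Of 19 glycolysis genes 3 were higher, among them the glucose transporter Slc2a3 (1.51 and 1.70).

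**Figure D2:**
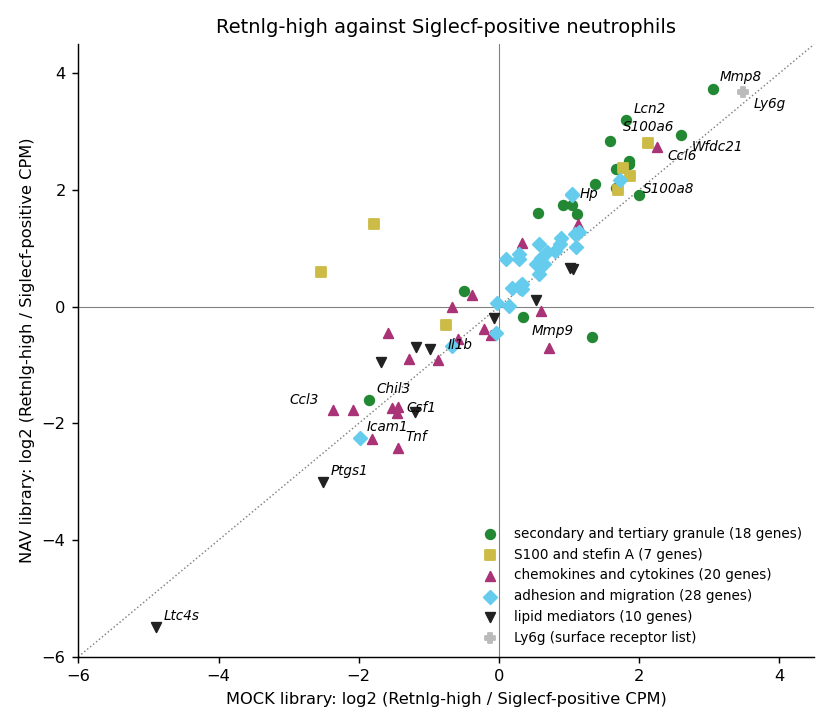
Each point is a gene of 5 lists, plus Ly6g, placed by its log2 ratio of Retnlg-high over Siglecf-positive CPM in the MOCK (x axis) and NAV (y axis) library. The dotted line marks equal ratios, granule genes such as Mmp8 (3.05 and 3.74) lie at upper right, and Ltc4s (-4.89 and -5.50) lies at lower left.

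The comparison with Retnlg-low neutrophils again put granule and calprotectin genes on the high side, with a limit on the low side. Immature cells were in neither comparison. High granule and calprotectin message is thus not shown to be particular to Retnlg-high cells. Of 6384 genes, 168 (2.63%) were at least 2-fold higher and 1107 (17.3%) at least 2-fold lower in both libraries, and under scaling by the median of ratios 452 and 398. The Retnlg-low set held 59 MOCK and 51 NAV cells above 3000 UMIs, which supplied 41.1% and 13.5% of its UMIs, against 12 and 9 cells with 4.04% and 5.86% in Retnlg-high cells. Several of the genes lowest in Retnlg-high cells moved with those deep cells. F13a1, coagulation factor XIII A of monocytes, had ratios of -4.07 and -4.29, and of -0.66 and -0.83 without cells above 3000 UMIs. Fn1, fibronectin, went from -4.24 and -2.53 to -1.08 and 0.62, and Chil3, a chitinase-like protein, from -3.72 and -3.25 to -2.29 and -2.01.

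The higher genes named here kept their direction without the deep cells. Ly6g stood at 187 against 2.44 CPM in MOCK and 76.2 against 4.02 CPM in NAV, with 2 and 7 UMIs in the Retnlg-low cells, ratios of 6.26 (4.39 to 9.31) in MOCK and 4.24 (3.10 to 5.63) in NAV, and 5.53 and 4.12 without deep cells. S100a9 had ratios of 2.30 and 2.95, and 1.86 and 2.85 without deep cells. Pglyrp1, a bactericidal peptidoglycan-binding granule protein, had 2.54 and 2.60, then 2.24 and 2.61. Rdh12, a retinol dehydrogenase, had 2.82 and 3.02, then 2.18 and 2.96. Timp2, an inhibitor of metalloproteinases, had 3.67 and 2.58, then 3.65 and 2.59. Granule genes were higher in 11 of 18 and lower in 2, against 2.63% and 17.3% of all genes measured. Their medians were 1.26 and 1.99, and without deep cells 12 were higher and 1 lower. Icam1 (-1.69 and -1.84) and Tnf (-1.18 and -2.33) were again lower in Retnlg-high cells.

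Within the Retnlg-high set itself several of these genes were graded. The split uses the rule's own markers, so the values are a description and no test. Members were split into tertiles, over both libraries, by the share of their UMIs that came from the 3 markers, with limits at 0.607% and 1.67%. The lowest, middle and highest tertile held 252, 273 and 321 MOCK cells and 185, 163 and 116 NAV cells, so that 37.9% of MOCK but 25% of NAV members lay in the highest. CPM in tertiles leave the 3 markers out of the total. S100a8 stood at 8063, 14181 and 26806 CPM from the lowest to the highest tertile in MOCK and at 6395, 14211 and 27090.3 CPM in NAV. Mmp8 stood at 271, 553 and 2599.6 CPM and at 219.7, 417 and 1559.6 CPM. Both were higher in each step in either library, and Anxa1, annexin A1 of the gelatinase granules, was too (468, 1075 and 1731 CPM for Anxa1 in MOCK).

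Genes of the opposite side were lower toward the high end. Ccrl2, a chemerin-binding receptor, stood at 1990.3, 1124 and 339 CPM in MOCK and 1579.6, 985 and 392 CPM in NAV. Icam1 stood at 617, 293 and 129 CPM and at 701, 180.0 and 99.5 CPM. Csf1 stood at 747, 469.7 and 163 CPM and 537, 298 and 73.0 CPM, and Tnf was 792, 309 and 110.2 CPM and 227, 199 and 66.4 CPM. Ero1l, an oxidoreductase of the endoplasmic reticulum that hypoxia raises, stood at 727, 290.1 and 184 CPM and 896, 507 and 106 CPM. Chil3 departed from granule genes such as Mmp8 and was highest in the lowest tertile, at 925, 323 and 231 CPM in MOCK and 255, 52.1 and 53.1 CPM in NAV.

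**Figure D3:**
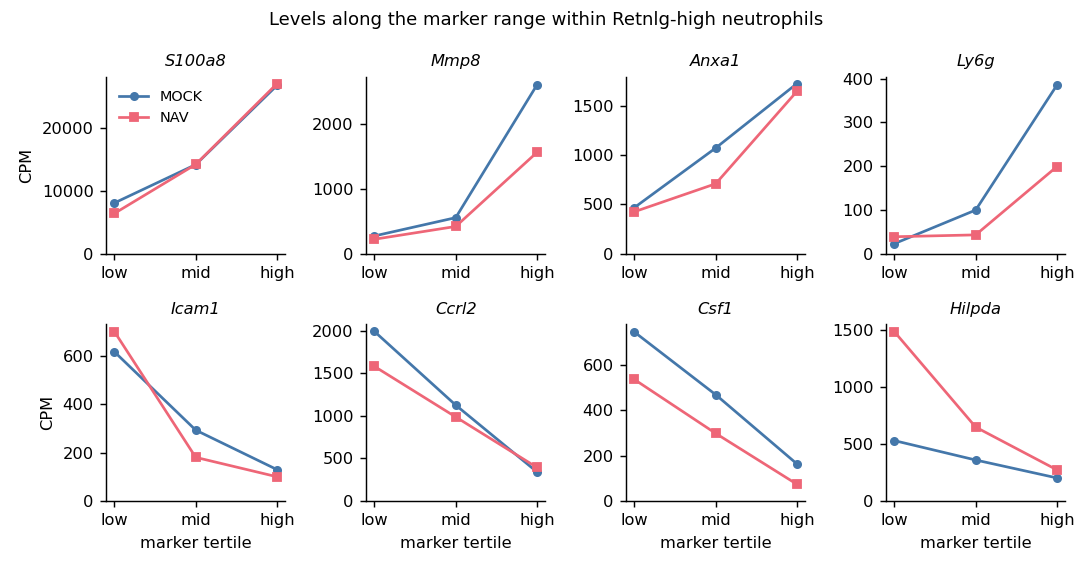
CPM (vertical axes, from 0) of 8 genes in the lowest, middle and highest tertile of marker share within Retnlg-high cells, as circles for MOCK and squares for NAV. S100a8, Mmp8, Anxa1 and Ly6g are higher in the highest than in the lowest tertile of both libraries, and Icam1, Ccrl2, Csf1 and Hilpda are lower.

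Between the treatments, Retnlg-high cells of the NAV library had less message for granule proteins and more for Hilpda and a few other genes of a tumour neutrophil list, with most other groups near the median. Of 5727 genes with at least 20 UMIs over both libraries, 314 (5.48%) were at least 2-fold higher and 284 (4.96%) at least 2-fold lower in NAV. The median log2 ratio of all genes was 0.11, so ratios are read against that value. Many of the low genes were low in unrelated cells too. Of the 284, 247 could be read in gates of B cells, T and NK cells and mononuclear phagocytes, and 85 (34.4%) had a median of at most -1.0 there, against 2.89% of all genes measured. Of the higher genes, 5 of 299 (1.67%) had a median of at least 1.0 there, against 13 of 5405 (0.241%) of all genes. The median of those gates is given for the genes that follow as the ratio in the other gates, and a gene without it could be read in too few of them.

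Granule genes were lower as a group: 7 of 19 measured were at least 2-fold lower in NAV, against 4.96% of all genes measured. None was past 2-fold higher, 16 were below 0, and the list median was -0.77. Macrophage and monocyte markers had a like share in the same cells: 4 of 11 (36.4%, against 36.8% of granule genes) were at least 2-fold lower in NAV and none higher, with a median of -0.29. Among them C1qc gave 116 and 17 UMIs and F13a1 59 and 6. Their part in the granule result was not tested. The granule median was -1.01 in Siglecf-positive and -1.26 in Retnlg-low neutrophils. Macrophage and monocyte markers had medians of -0.92 and -1.68 in these sets. Cells above 3000 UMIs supplied 41.1% of the Retnlg-low UMIs in MOCK and 13.5% in NAV. All NAV/MOCK ratios of the Retnlg-low set carry this limit, and its part was not tested. Cd177, a surface protein of secondary granules used to mark neutrophil subsets, gave 243 UMIs in MOCK and 13 in NAV members, 201 and 19.8 CPM, a log2 ratio of -3.34 (-4.27 to -2.54). It lies on the minus strand of chromosome 7 (chr7:24743983-24760311, GRCm38, GENCODE vM21). Hp, on the minus strand of chromosome 8 (chr8:109575128-109579172), gave 1417 and 171 UMIs, 1171 and 261 CPM, a ratio of -2.17 (-2.41 to -1.94) beside -1.31 in the other gates. After thinning, Hp had a UMI in 52.6% and 14.5% of members (unthinned 70.4% and 26.7%), against 0.559% and 0.410% of B cells.

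Chil3 gave 554 and 92 UMIs, 458 and 140.2 CPM, a ratio of -1.71 (-2.04 to -1.39). Mmp8 gave 1259 and 588 CPM, -1.10 (-1.26 to -0.94), and Slpi, a secreted inhibitor of neutrophil elastase, 939.6 and 456 CPM, -1.04 (-1.23 to -0.86). These were lower in NAV beyond counting error. In the other gates Chil3 had 0.21, Mmp8 -1.79 and Slpi -0.041. Neutrophil messages are rare in some of those gates. Unthinned, Mmp8 had a UMI in 0.692% of MOCK and 0.271% of NAV gated B cells, and Lcn2 in 1.11% and 0.271%. Ratios of such genes in the other gates may not describe expression by those cells, which was not tested. Lcn2 (2849 and 1665 CPM, -0.77, interval -0.87 to -0.68) and Wfdc21 (-0.67) were lower by less. Lcn2 and Wfdc21 had ratios of -2.60 and -3.25 in the other gates. Mmp9 (-0.27, interval -0.37 to -0.17), Lyz2 (0.037) and Adam8 (0.33) did not share the shift. The other gates had 0.61 for Lyz2 and 0.21 for Adam8. Within the lowest, middle and highest tertile of the marker range the Hp ratio was -2.60, -1.60 and -1.99 and the Cd177 ratio -2.69, -2.84 and -3.18. Mmp8 was -0.30, -0.41 and -0.74, smaller in size in each tertile than over all members, and Lcn2 was -0.89, -0.47 and -0.44. Over the list the tertile medians were -0.54, -0.44 and -0.44.

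Calprotectin differed little. S100a8 gave 20645 and 8916 UMIs, 17060.5 and 13583 CPM, a ratio of -0.33 (-0.36 to -0.29), and S100a9 10909.8 and 8873 CPM, -0.30 (-0.34 to -0.25). In the middle and highest tertile S100a8 differed little between libraries (tertile ratios -0.33, 0.0030 and 0.015). In Siglecf-positive and Retnlg-low cells the S100a8 ratios were -0.69 and -1.05. In the other gates it was -1.36. Over the list of S100 and stefin A genes 3 of 9 (33.3%) were past 2-fold higher and 2 (22.2%) lower. Of all genes measured 5.48% were higher and 4.96% lower. Stfa2 gave 56 and 4 UMIs (-2.92, interval -4.85 to -1.49) and Stfa1 57 and 10 (-1.63, interval -2.76 to -0.65), with the copy limit given above. S100a4 (30 and 46 UMIs, 1.499, interval 0.80 to 2.21) and S100a10 (15 and 26 UMIs, 1.68, interval 0.71 to 2.698) were higher in NAV from few molecules. Without members that held lymphocyte UMIs they stood at 27 and 28 and at 10 and 12 UMIs, ratios of 1.03 and 1.24. Over all members Cstb, the cytosolic cystatin B, was 239 and 506 CPM, 1.08 (0.85 to 1.32). The other gates had -0.81 for S100a9, 0.38 for S100a4, 0.50 for S100a10 and 0.22 for Cstb.

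The tumour neutrophil list holds genes known to be raised in neutrophils inside tumours. Of 25 measured, 5 (20%) were at least 2-fold higher in NAV, against 5.48% of all genes measured, and none lower. The list median was 0.41. The medians were 0.42 in Siglecf-positive and 0.67 in Retnlg-low cells. Hilpda, a hypoxia-induced lipid droplet protein encoded on the plus strand of chromosome 6 (chr6:29272488-29275446, GRCm38), gave 413 UMIs in 141 MOCK members and 605 in 125 NAV members, 341 and 922 CPM, a ratio of 1.43 (1.25 to 1.62). It was -0.014 in the other gates and 1.85 and 2.17 in Siglecf-positive and Retnlg-low neutrophils. Thinned, it was detected in 12.2% and 20.5% of members (unthinned 16.7% and 26.9%) and 5.45% and 6.84% of B cells.

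Mif, a cytokine that hypoxia also raises, gave 43 and 70 UMIs (1.59, interval 1.02 to 2.17) and Cd63, a tetraspanin of granule and lysosome membranes, 109.9 and 204 CPM (0.89, interval 0.54 to 1.25). Spp1, osteopontin, gave 47 and 69 UMIs (1.44, interval 0.88 to 2.003), and the other gates had 1.43. Gpnmb rested on 4 and 17 UMIs, 8 of the 17 in 1 cell. Ptgs2, cyclooxygenase-2, was 465 and 849 CPM (0.87, interval 0.70 to 1.04), and Vegfa 339.6 and 460.1 CPM (0.44, interval 0.22 to 0.66). In the other gates Mif had 0.13, Cd63 -0.11, Gpnmb 0.78, Ptgs2 -0.077 and Vegfa 0.078. Along the marker range the genes did not share an order. From the lowest to the highest tertile the ratios were 1.49, 0.85 and 0.43 for Hilpda and 1.10, 0.64 and 0.31 for Ptgs2, but 1.05, 0.37 and 0.61 for Cd63 and 0.32, 0.39 and 0.41 for Vegfa. Mif gave no ratio in the highest tertile, where NAV had 0 UMIs, and the list median in the highest tertile was -0.16.

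Cytokine messages went in both directions. Of 20 measured, 3 (15%) were higher and 1 (5%) lower past 2-fold, against 5.48% and 4.96% of all genes measured. Cxcl3, a CXCR2 ligand, gave 123 and 192 UMIs (1.52, interval 1.19 to 1.86), with 2.001 in the other gates and tertile ratios of 1.92, 1.22 and -1.88. Cxcl10 (29 and 41 UMIs) and Cxcl1 (20 and 26 UMIs) were higher by 1.38 and 1.26, but 35 of the 41 and 15 of the 26 NAV UMIs came from 1 cell each. Tnf was lower, with 445 and 117 UMIs, 368 and 178 CPM (-1.04, interval -1.35 to -0.75). Its ratio was -0.061 in Siglecf-positive cells, 0.10 in Retnlg-low cells and -0.28 in the other gates, and the difference between the sets was not tested. Il1b, the main secreted interleukin 1 gene of neutrophils (6452 and 7727 CPM, 0.26, interval 0.21 to 0.31), and Cxcl2, a CXCR2 ligand (3828 and 3810.2 CPM, -0.0066, interval -0.077 to 0.064), differed little, with -0.16 and 0.19 in the other gates. Cxcl10 had 0.28 there.

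**Figure D4:**
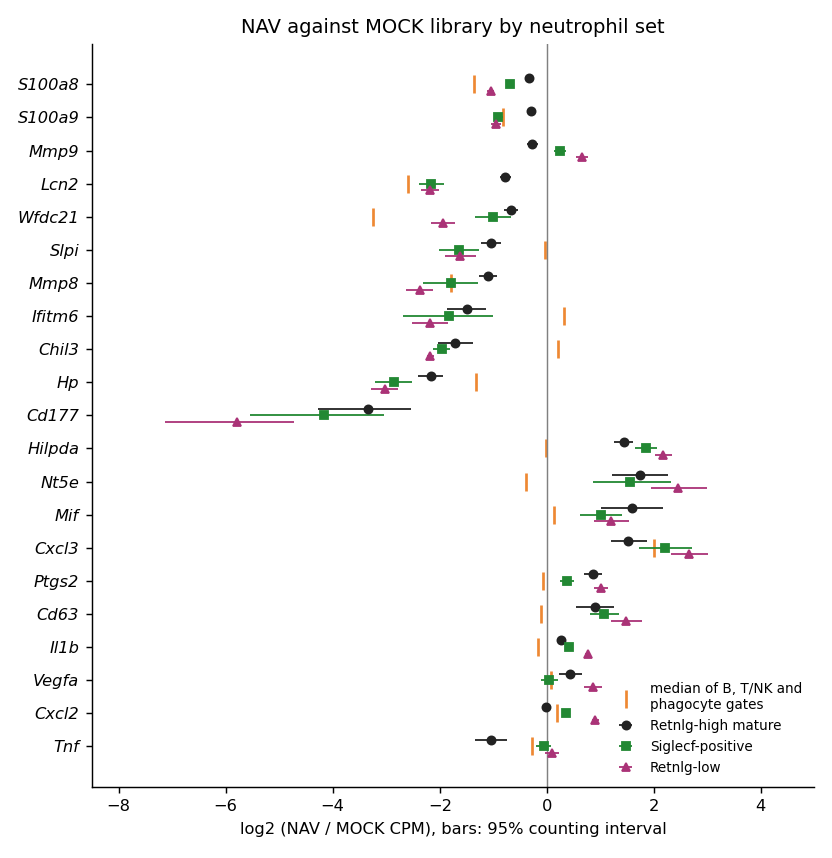
Log2 NAV/MOCK ratio of CPM (x axis) for 21 genes in Retnlg-high (circles), Siglecf-positive (squares) and Retnlg-low (triangles) neutrophils, with 95% counting intervals, and the median of 3 gates of other leukocytes (vertical ticks, where measurable). Cd177 and Hp lie on the low side in the 3 neutrophil sets, Hilpda lies on the high side (1.43 in Retnlg-high cells) with its tick at -0.014.

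Surface receptors had a median of -0.043, but the calls lay on the low side. Of 29 measured, 4 (13.8%) were at least 2-fold lower in NAV and none higher. Of all genes measured 4.96% were lower and 5.48% higher. Ly6g gave 226 and 50 UMIs (-1.29, interval -1.77 to -0.85), and its tertile ratios were 0.77, -1.22 and -0.95, from few UMIs at the low end. Pirb, an inhibitory immunoglobulin-like receptor, gave 408 and 58 UMIs (-1.93, interval -2.35 to -1.53), beside -1.43 in the other gates. Il4ra, the interleukin 4 receptor chain, was -1.35 beside -1.29, so members and unrelated cells had similar ratios. The marrow-retention receptor Cxcr4 (0.11, interval 0.0069 to 0.22) lay near the median of all genes. Cd101, which mature neutrophils gain, gave 147 and 125 UMIs (0.65, interval 0.29 to 1.003). The other gates had 0.15 for Cxcr4 and 0.17 for Cd101.

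Genes for ARF GTPases, their regulators, the COPI coat and KDEL receptors form the machinery around the drug's target. Of 30 measured, 3 (10%) were at least 2-fold lower and 1 (3.33%) higher, with a median of 0.075. Of all genes measured 4.96% were lower and 5.48% higher. Arfgap2 (26 and 4 UMIs, -1.82, interval -3.80 to -0.29) and Arfgap3 (20 and 2 UMIs, -2.44, interval -5.58 to -0.40), which switch ARF1 off, were also lower in the other gates at -1.87 and -1.06. Arf2 gave 135 and 33 UMIs (-1.15, interval -1.75 to -0.59) with -0.017 in the other gates, and Arl1 19 and 27 (1.39, interval 0.49 to 2.32). Arf1 (-0.26, interval -0.45 to -0.069) and Arf6 (0.16, interval -0.041 to 0.36) differed by less than 2-fold. The other gates had 0.071 for Arl1, -0.12 for Arf1 and 0.15 for Arf6. None of 8 NADPH oxidase genes, which make the respiratory burst, passed 2-fold in either direction, and Ncf1 was lowest at -0.94 beside -1.19 in the other gates.

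Type I interferon response genes had a median of 0.087 with 3 of 25 (12%) lower past 2-fold, against 4.96% of all genes measured. Interferon-gamma response genes had a median of 0.45 with 1 of 10 (10%) higher, against 5.48% of all genes measured. The interferon-gamma median was 0.067 without members that held lymphocyte UMIs, 0.047 without doublet scores above 0.25 and 0.0033 without cells above 3000 UMIs, each over 9 genes. Ifitm6 gave 411 and 79 UMIs (-1.497, interval -1.86 to -1.15), Slfn2 423 and 76 (-1.59, interval -1.97 to -1.24, other gates -1.33) and Isg15 112 and 25 (-1.28, interval -1.97 to -0.65, other gates -2.17). Among 26 transcription factors 2 (7.69%) were lower and 1 (3.85%) higher. Cebpa gave 33 and 3 UMIs (-2.58, interval -4.93 to -0.90, other gates -2.07). Rela gave 250 and 48 (-1.498, interval -1.98 to -1.05, other gates -1.24) and Ets1 62 and 75. Without members that held lymphocyte UMIs the Ets1 ratio was 0.37 instead of 1.16. Cebpb, a C/EBP factor of emergency granulopoiesis, was at -0.0025 (-0.052 to 0.046). In the immunosuppressive list 2 of 11 (18.2%) were higher and 1 (9.09%) lower. Nt5e, the CD73 ecto-enzyme that makes adenosine, gave 51 and 92 UMIs (1.73, interval 1.22 to 2.26), Pdcd1lg2 7 and 15, and Il4ra is given above. In the other gates Ifitm6 had 0.31, Ets1 -0.023, Cebpb 0.051, Nt5e -0.40 and Pdcd1lg2 0.49.

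The genes ranked lowest in NAV over all genes held several that were also low in the other gates. Ppp1ca, a catalytic subunit of protein phosphatase 1, gave 299 and 30 UMIs (-2.43, interval -3.03 to -1.89) beside -2.32 in the other gates, and Ctsd, cathepsin D, 632 and 163 CPM (-1.96, interval -2.26 to -1.66) beside -1.75. Hcls1 (-1.77 beside -1.69) and Qsox1 (-2.87 beside -2.01) behaved likewise. Ecm1 gave 74 UMIs and 1 UMI (-5.33, interval -10.65 to -2.80), with -3.94 in the other gates. Crispld2, a secreted protein that binds endotoxin, gave 463 and 70 UMIs (-1.84, interval -2.23 to -1.48), and Fosl1, an AP-1 subunit, 128 and 12 (-2.53, interval -3.52 to -1.68). The other gates gave no median for these last genes, and phagocytes alone had -0.85 and -0.84.

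Of the 10 genes ranked highest in NAV, 6 were lymphocyte genes that sat in few barcodes. Il17a gave 1 UMI in MOCK and 65 in NAV, 50 of them in 1 of 2 cells. Icos gave 2 and 59 UMIs, Gzmb 3 and 52, and Ccl5 29 and 128, with 38, 25 and 74 of the NAV UMIs in 1 cell. Without members holding 2 or more T, NK or B cell UMIs these were 1 and 0 for Il17a, 2 and 0 for Icos, 1 and 1 for Gzmb, and 10 and 3 for Ccl5. Il2rb (20 and 82 UMIs, 2.92, interval 2.20 to 3.70) was 2.56 without them, from 3 and 9 UMIs, and Gzma gave 11 and 45 UMIs, 37 of the 45 in 1 cell. In the other gates Icos had -0.59, Gzmb 0.091, Ccl5 -0.56, Il2rb 0.18 and Gzma 1.60. The remaining 4 were Hilpda, described above, and 3 genes without a lymphocyte role in these lists. Fam102b (16 and 41 UMIs, 2.24, interval 1.38 to 3.17), Eprs, a glutamyl-prolyl tRNA synthetase (30 and 65, 1.998, interval 1.35 to 2.67), and Nr4a2, an orphan nuclear receptor (22 and 48, 2.01, interval 1.25 to 2.81), were spread over 29, 34 and 23 NAV cells. Without members that held lymphocyte UMIs their ratios were 2.52, 1.73 and 1.16. In the other gates they had 0.15, 0.013 and 0.044.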

How the data were processed

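CD45+ cells of 1 MOCK and 1 NAV library were used. The deposited values are raw UMI counts, whole numbers for every gene in every barcode. The submitters' processing notes name the mm10 build, Cell Ranger, STARsolo 2.7.10a and fastp without saying which did what. No barcode had under 500 UMIs, and the tables held 31253 genes, of which 31107 identifiers were in GENCODE vM21. Python 3.11.15, numpy 2.4.6, scipy 1.17.1, pandas 2.3.3 and scanpy 1.11.5 (Scrublet) were used. UMIs were summed per set and library and divided by the set's total (CPM); ratios have exact conditional and shares exact Clopper-Pearson intervals. With 1 library per group there is no test. A gene counts as higher or lower at a log2 ratio of 1.0 among genes with at least 20 UMIs, the rule's genes left out. Gates of other leukocytes needed 3 UMIs of their markers and fewer than 3 of the others. The ratio script was checked on simulated counts. Genes named come from the 10 highest in each library and the 8 highest and lowest in each set comparison, ranked by the interval bound nearest to 0 (at least 50 UMIs and 50 CPM), and from the 4 with the largest ratio and the 2 with the highest CPM in each list, with others (among them Slpi, Icam1, Csf1, Ccl3, Itgal, Anxa1, Vegfa, Cd63 and Cd101) chosen after their values were seen. A few results for single genes are not reported here. The members, lists and tests were chosen with earlier results of these data known. Alternatives covered filters, marker minimum, thinning, doublets, scaling, cell weight and UMI minimum; removal of cells with lymphocyte UMIs or above 3000 UMIs and the tertile split were chosen after seeing the data.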

Additional observations from a re-analysis of the deposited data

Results flagged for a closer look

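For 5 of the genes picked by the rankings and lists, the NAV/MOCK ratio had opposite signs in Retnlg-high cells and another neutrophil set. Both counting intervals were clear of 0. The share of all measured genes that do so is not given here. None of the 5 differences was tested, since each set has 1 library per treatment. Values of the Retnlg-low set carry the limit of its cells above 3000 UMIs. Mmp9 was -0.27 in Retnlg-high, 0.24 in Siglecf-positive and 0.66 in Retnlg-low neutrophils. Arg2, arginase 2, was -0.27 against 0.34 in Retnlg-low cells. S100a4 was 1.499 against -1.70 and -1.78 in Siglecf-positive and Retnlg-low cells. S100a10 was 1.68 against -1.45 and -1.61. In Retnlg-high cells S100a4 rested on 30 and 46 UMIs and S100a10 on 15 and 26. Hspa1b, an inducible heat shock protein, was 0.80 against -0.61 in Retnlg-low cells. Its 55 MOCK and 52 NAV UMIs came from 14 and 7 cells, with 24 and 33 of them in 1 cell.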

How the results depend on the processing

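No paired analysis was possible because each treatment has 1 library. The lower share of Retnlg-high cells in NAV kept its direction in the 6 alternatives run on each denominator. With a marker sum of at least 2 the ratios were -0.63 of all barcodes and -1.25 of gated neutrophils, and after thinning to 500 UMIs the former was -1.06. Counts of genes followed the minimum of UMIs. With 100 UMIs, 29 genes were higher and 68 lower in NAV, 113 and 186 higher and lower than in Siglecf-positive cells, and 109 and 263 than in Retnlg-low cells. With no minimum beyond 1 UMI in each group, 1274 were higher and 723 lower in NAV, and 1780 and 1744 lower than in those 2 sets. Scaling by the median of ratios gave 430 and 360 against Siglecf-positive and 452 and 398 against Retnlg-low cells. With the median of the other gates subtracted, 141 were lower in NAV.

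The granule list stayed below 0 in 14 of 14 alternatives (-0.88 to -0.44). The S100 and stefin A median turned to 0.86 minus the other gates, and to 0.069 and 0.015 in the lowest and highest tertile, and the tumour neutrophil median to -0.16 in the highest. Minus the other gates, 13 of the 106 genes picked by the NAV/MOCK rankings and the lists turned. They were Trem1 -0.23, Lcn2 1.82, S100a8 1.03, S100a9 0.52, Cxcl3 -0.48, Ftl1 0.15, Ncf1 0.25, Isg15 0.89, Gbp2 -0.38, Eno1 0.30, Gadd45b 0.20, Arfgap2 0.054 and Gpsm3 0.29. Other named genes were not counted here. Among those, Mmp8 and Wfdc21 also had lower ratios in the other gates than in members, as given above. The limit of rare neutrophil messages in the other gates holds here too. Ccl5 was -1.63 without doublet scores above 0.25. Hspa1b was -0.36 with equal weight per cell, -1.97 without cells with lymphocyte UMIs and -0.54 without cells above 3000 UMIs. The cause was not tested. Depth limits single genes: at about 1300 UMIs per cell many were seen in few cells.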

Other observations

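Genes of energy use and survival were mostly level between the treatments in Retnlg-high cells. The lower calls made up 5.26% of glycolysis and 4.35% of survival genes, against 4.96% of all genes measured. Of 19 glycolysis genes 1 was at least 2-fold lower in NAV, Eno1, with 440.5 and 216 CPM (-1.03, interval -1.30 to -0.76) beside -1.33 in the other gates, and the median was -0.076. Tpi1 was 0.79 (0.45 to 1.12) and Slc2a3 0.40 (0.21 to 0.59). Of 23 survival and apoptosis genes 1 was lower, Bcl2l1, which encodes BCL-XL, with 515 and 109 UMIs (-1.36, interval -1.67 to -1.06) beside -1.34 in the other gates. Mcl1, on which neutrophil lifespan depends, was 5051 and 4407 CPM (-0.20, interval -0.26 to -0.13). Pim1, a survival kinase, was 6426 and 5207 CPM (-0.30, interval -0.36 to -0.25). The other gates had -0.039 for Tpi1, -0.040 for Slc2a3, 0.027 for Mcl1 and -0.13 for Pim1.

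None of 27 immediate early and dissociation stress genes passed 2-fold in either direction, and their median was -0.0020. Egr1 was 238 and 419 CPM (0.82, interval 0.57 to 1.06), and Nr4a1 1301 and 803 CPM (-0.70, interval -0.84 to -0.55), with -0.035 and -0.28 in the other gates. None of 29 adhesion and migration genes passed 2-fold, and Tln1, talin, was lowest at -0.95 (-1.19 to -0.71) beside -0.61 in the other gates. The median of 8 lipid mediator genes was 0.18 and none passed 2-fold.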
